A study of Mus musculus with 35 samples.

Results

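Expressed Zfp zinc finger genes were described in a total RNA-seq time course of mouse embryonic stem cells (ESCs) that lost Dnmt1, which encodes the enzyme that copies DNA methylation to the new strand. A gene was a member if its symbol was Zfp followed by digits alone and if it exceeded 1 RPKM (library reads scaled to 1 mega-read and to 1 kilobase of exon) in no fewer than 17 of 34 libraries of both genotypes. Of 26127 genes in the table, 343 carried such a symbol, 4 of them (Zfp42, Zfp57, Zfp352 and Zfp809) were left out by name, and 187 were members. The members were thus selected on their RPKM over both genotypes, so their level is a description and was not tested.

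The study compared WT with Dnmt1 conditional KO ESCs at 8 days (0, 1, 3, 6, 9, 11, 17 and 25) in ribosomal RNA-depleted total RNA, with 2 libraries a group and 3 at day 1. A single Dicer KO library, from cells without the small RNA processing enzyme, was described with no test. The ESCs carried Dnmt1 loxP/loxP alleles and a Cre that tamoxifen switches on, and the Dicer KO line was made by genome editing of Dnmt1 loxP/loxP ESCs, so it carries the floxed alleles too. The labels call the background E14 whereas the methods describe the loxP line as C57BL/6, and the labels do not give the treatment of the WT cells. The submitters call the replicates biological without naming cultures, so p-values measure the spread between these libraries.

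Zinc finger proteins of this kind bind DNA through tandem C2H2 fingers, each of which reads a few bases. Many of those named Zfp in the mouse also carry a KRAB (Krüppel-associated box) domain, which recruits the corepressor TRIM28 and, through it, the methyltransferase SETDB1, so that transposons and imprinted regions are kept in repressive histone methylation and DNA methylation. KRAB zinc finger genes multiplied by local duplication and lie in clusters on several mouse chromosomes, whereas many zinc finger genes without KRAB are old single genes with roles in transcription, RNA decay or ribosome function.

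A KRAB A box signature was found in the coding sequence of 75 members and not in the other 112. It was present in 61.3% of the 93 members that lay in 19 clusters (at least 3 members on 1 chromosome with neighbouring starts within 1 Mb) and in 19.1% of the 94 members outside them. The median member had 9 matches to the C2H2 finger pattern, with a median of 12 in members with the KRAB signature and 7 in members without it, up to 33 in Zfp462, and no match in 9 members. The signature is strict and passes over some known KRAB genes such as Zfp445, so "without KRAB" means only that the signature was not found.

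Because DNMT1 methylates CpG sites, the 250 bases before the RefSeq start (GRCm38.p6) are shown for the members with the largest rises and falls over days 3 to 25 that had a RefSeq entry and no stretch of 30 bases in a coding transcript, with each CpG in capitals. Zfp600, Zfp951 and Zfp800 had the largest rises, and Zfp653, Zfp507 and Zfp266 were the falls with the largest size that met these conditions. The windows are chr4:146156577-146156826 on the plus strand for Zfp600, chr5:104860069-104860318 on the minus strand for Zfp951, chr6:28398006-28398255 on the minus strand for Zfp800, chr9:22071377-22071626 on the minus strand for Zfp653, chr7:35802990-35803239 on the minus strand for Zfp507 and chr9:20521420-20521669 on the minus strand for Zfp266.
Zfp600: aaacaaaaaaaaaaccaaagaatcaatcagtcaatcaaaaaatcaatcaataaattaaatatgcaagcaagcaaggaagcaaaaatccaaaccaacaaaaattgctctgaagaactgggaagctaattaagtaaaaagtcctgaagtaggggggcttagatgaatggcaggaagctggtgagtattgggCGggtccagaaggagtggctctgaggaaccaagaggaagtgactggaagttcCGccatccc
Zfp951: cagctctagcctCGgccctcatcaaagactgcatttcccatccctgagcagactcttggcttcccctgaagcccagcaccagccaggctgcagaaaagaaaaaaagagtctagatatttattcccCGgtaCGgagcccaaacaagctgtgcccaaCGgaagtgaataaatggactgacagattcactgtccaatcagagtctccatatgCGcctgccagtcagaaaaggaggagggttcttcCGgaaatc
Zfp800: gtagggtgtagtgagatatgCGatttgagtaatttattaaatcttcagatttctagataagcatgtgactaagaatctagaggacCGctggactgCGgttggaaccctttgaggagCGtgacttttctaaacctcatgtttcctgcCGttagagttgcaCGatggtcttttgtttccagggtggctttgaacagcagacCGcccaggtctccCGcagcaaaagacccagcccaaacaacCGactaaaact
Zfp653: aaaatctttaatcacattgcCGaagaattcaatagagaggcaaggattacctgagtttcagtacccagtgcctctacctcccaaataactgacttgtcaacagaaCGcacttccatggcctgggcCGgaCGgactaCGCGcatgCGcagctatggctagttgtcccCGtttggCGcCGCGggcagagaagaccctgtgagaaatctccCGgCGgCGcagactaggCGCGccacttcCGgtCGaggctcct
Zfp507: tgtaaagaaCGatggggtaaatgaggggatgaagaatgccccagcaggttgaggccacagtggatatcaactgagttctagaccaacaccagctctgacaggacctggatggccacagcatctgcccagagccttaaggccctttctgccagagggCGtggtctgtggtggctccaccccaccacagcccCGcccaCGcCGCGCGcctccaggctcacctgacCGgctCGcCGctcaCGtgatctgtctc
Zfp266: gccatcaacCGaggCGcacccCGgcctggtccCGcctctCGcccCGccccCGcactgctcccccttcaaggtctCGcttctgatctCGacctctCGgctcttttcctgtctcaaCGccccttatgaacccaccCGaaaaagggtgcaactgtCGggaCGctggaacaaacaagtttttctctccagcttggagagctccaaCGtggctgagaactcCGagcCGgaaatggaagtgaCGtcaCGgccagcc

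The windows of the 3 members that rose held 2 (Zfp600), 6 (Zfp951) and 9 CpG (Zfp800), and those of the 3 that fell held 18 (Zfp653), 11 (Zfp507) and 19 CpG (Zfp266). These 6 windows were chosen by the size of the change and are a description. The largest fall, Zfp652, is not shown because its window holds transcribed bases. Over the members, 153 (81.8%) matched a RefSeq promoter entry, and 51.0% of those were CpG-rich (observed over expected CpG of at least 0.6 and at least 50% G and C in the 300 bases from 250 before to 50 after the start). The share was 72.4% over the 7875 tested genes with an entry and 34.1% over all 27026 genes with one. By this rule Zfp653 and Zfp266 are CpG-rich, while Zfp507 and Zfp652 are CpG-poor. Over the mean of days 3, 9, 11, 17 and 25, 13 of the 78 CpG-rich members were called higher in KO and 21 lower. Of the 75 CpG-poor members, 19 were called higher and 16 lower. These are 16.7% and 26.9%, and 25.3% and 21.3%, against 37.4% and 20.4% of all genes (limma adjusted p below 0.05). Methylation was not measured in these libraries.

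At day 0 the libraries labelled KO had 18.7 and 18.5 RPKM of Dnmt1 and those labelled WT 18.3 and 18.4 RPKM, so the labels cannot be checked by Dnmt1 there. From day 1 on, Dnmt1 RNA followed the labels except at day 6. In KO it was at 2.86 and 3.04 RPKM in replicates 1 and 2 of day 1 and at 8.13 RPKM in replicate 3. It had between 14.1 and 34.8 RPKM in the WT libraries of days 9 to 25 and between 2.58 and 4.40 RPKM in the KO libraries of those days, but at day 6 the libraries labelled WT had 3.22 and 3.4 RPKM and those labelled KO 20.2 and 20.4 RPKM. Day 6 is therefore given as labelled and kept out of the mean effect, which is over days 3, 9, 11, 17 and 25. Exons of genes held between 20.2% and 22% of the reads in 20 low-share libraries, those of days 0 to 9 apart from the day 1 replicate 3 pair. In the 15 high-share libraries, which are that pair, all later ones and Dicer KO, it was 44.1% to 48.8%. The lowest of 6 stem cell markers (Pou5f1, Nanog, Sox2, Esrrb, Klf4 and Tdgf1) was at 3.65 RPKM or above in each library, while the summed level of 8 fibroblast markers of feeder cells was 8.49 and 7.46 RPKM in WT and 15.1 and 13.5 RPKM in KO at day 9. At day 3 it was 6.30 and 5.50 RPKM in WT and 10.1 and 9.92 RPKM in KO, and at day 11 it was 2.65 and 2.48 RPKM in WT and 0.928 and 0.856 RPKM in KO. It lay between 0.839 and 1.2 RPKM at days 17 and 25. Its part in the member results was not tested.

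Members spanned medians from 0.961 to 17.3 RPKM over the 34 libraries, with a median of 1.85 RPKM. They had at least 3 reads in every library, with a median of 335.5 reads a value and only 1 of 6358 values under 10 reads. In the low-share libraries the median member had between 1.47 and 1.75 RPKM and in the high-share libraries between 3.71 and 4.39 RPKM, against 1.91 to 2.15 and 3.73 to 4.35 RPKM for the median of the 11615 genes tested. All 14 high-share WT and KO libraries were above 1 RPKM for 176 members and all 20 low-share libraries for 117. The rule for members thus leaned on the high-share libraries, in which the genotypes are balanced.

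Near the threshold, Zfp574, Zfp758, Zfp839 and Zfp850 were above 1 RPKM in 17 libraries, with medians between 0.961 and 1.01 RPKM. Zfp12, Zfp420, Zfp74 and Zfp93 were above it in 16, with medians between 0.891 and 0.960 RPKM, and were not members. Another 5 members reached 18 libraries (Zfp236, Zfp39, Zfp873, Zfp946 and Zfp959) and 9 genes that were not members reached 15. In 5 members the number of libraries above 1 RPKM differed by more than 3 between genotypes. These were Zfp414 (7 KO and 15 WT libraries), Zfp758 (11 and 6), Zfp653 (8 and 13), Zfp53 (10 and 15) and Zfp296 (11 and 15). For these 5 the member rule leaned on the genotype with more libraries, so a difference in that direction is not independent of the rule.

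The highest medians were those of Zfp534 (17.3 RPKM), Zfp330 (14.6 RPKM), Zfp207 (13.6 RPKM), Zfp106 (12.8 RPKM) and Zfp568 (12.7 RPKM). Zfp534 is a KRAB gene of chromosome 4, and 61.8% of its 50-base words occurred in transcripts of other genes, so its level is uncertain. Zfp207 encodes a spindle assembly protein, Zfp106 an RNA-binding protein, and Zfp568 a KRAB repressor of a placental Igf2 transcript. Over the members, 20 shared more than 10% of their 50-base words with other genes. Exons of 28 members overlapped exons of a gene on the other strand, and since counting by strand is not stated for this table, reads of the gene and its antisense partner cannot be told apart there.

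The main question was which members were higher or lower in KO than in WT at each day. A member was called at an adjusted p below 0.05 in limma fitted to all 11615 genes, and differences are KO minus WT on the log2(RPKM + 0.1) scale, which understates changes of low genes. In bulk RNA, a change in the share of a cell type and a change of RNA per cell cannot be told apart. At day 0 no member was called in limma (0% of all genes in either direction), with 9 members at an unadjusted p below 0.05 (4.81%, against 2.08% of all genes) and 6 by voom. At day 1 no member was called either (0.121% of all genes higher and 0.0258% lower), with 37 members at an unadjusted p below 0.05 (19.8%, against 11.8% of all genes) and 33 by voom, where voom also called none.

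On days 3, 9 and 11 more members were called lower than higher. At day 3, 7 members were higher (7.4% of all genes) and 9 lower (3.81% of all genes), which is 3.74% and 4.81% of members. At day 9, 17 members were higher and 25 lower, or 9.09% and 13.4% of members against 16.7% and 10.5% of all genes. At day 11, 16 were higher and 52 lower, or 8.56% and 27.8% of members against 22.7% and 12.3% of all genes. The share of lower calls was well above that of all genes at day 11 only, and at days 3 and 9 it was close to it. The share of higher calls was below that of all genes on each of these days. Leaving out WT replicate 1 or KO replicate 1 of day 3 left 8 and 9 calls. Without KO replicate 1, WT replicate 2 or KO replicate 2 of day 9, 27, 23 and 27 calls were made, and without WT replicate 1 of day 11, 39.

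Day 17 stood between and day 25 was different. At day 17, 34 members were higher and 24 lower (18.2% and 12.8% of members, 28.9% and 11.4% of all genes), a split that turned to 18 higher and 57 lower (9.63% and 30.5%) when each library was centred on its median, as did that of all genes (17.5% and 25.6%). At day 25, 81 members were higher and 39 lower (43.3% and 20.9% of members, 39.4% and 25.9% of all genes), and centring gave the same split of 81 and 39. All these counts rest on the term for the day 1 replicate 3 pair, since without it the spread of day 1 enters the error and 24 members were called at day 25 and 13 over the mean. The median difference over members was -0.09 at day 9, -0.09 at day 11, 0.04 at day 17 and 0.16 at day 25, beside medians of 0.02, 0.07, 0.09 and 0.13 over all genes. Centring moved the median of all genes at day 17 from 0.09 to -0.09, at day 11 from 0.07 to -0.05, and the split of members to 15 and 39 at day 9 (8.02% and 20.9%, against 13.4% and 13.6% of all genes) and 7 and 71 at day 11 (3.74% and 38%, against 14.8% and 20.4%).

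Over the mean of days 3, 9, 11, 17 and 25, 38 members were higher and 53 lower. That is 20.3% and 28.3% of members, against 37.4% and 20.4% of all genes, and centring gave 28 higher and 81 lower, or 15% and 43.3% of members against 26.2% and 31.6% of all genes. Most of these changes were small, since 82 of the 91 called members differed by less than 0.5 on the log2 scale and 2 by more than 1. Over the 5 days, 157 members were called at least once (84%, against 87% of all genes) and 5 on each day (2.67%, against 4.06%), namely Zfp266, Zfp292, Zfp600, Zfp951 and Zfp961, listed after their values were seen. On all 5 days, 17 members were above 0 (9.09%, against 17.7% of all genes) and 14 below 0 (7.49%, against 6.48%). At day 6, as labelled, 19 members were higher and 39 lower (8.61% and 18.5% of all genes), and without WT replicate 1 of that day 33 calls were made. The day 6 differences ran against those of day 9 with a Pearson r of -0.80 across the 187 members, which are not independent replicates.

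**Figure D1:**
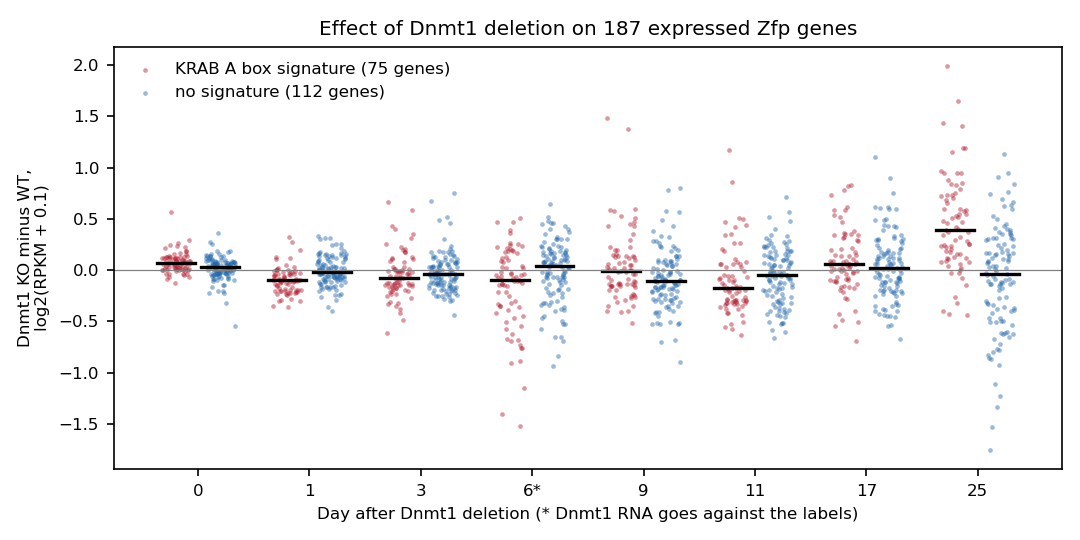
Differences between Dnmt1 KO and WT (y axis, log2(RPKM + 0.1)) of the 187 members at each day (x axis), 1 point a member, split by the KRAB A box signature, with black bars at medians. At day 25 the 75 members with the signature have a median of 0.39 and the 112 without it a median of -0.04, while on the other days the medians of both sets lie within 0.2 of 0.

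Members with the KRAB signature and members without it had different counts at day 25. Of the 75 with the signature, 47 were higher and 4 lower (62.7% and 5.33%, against 39.4% and 25.9% of all genes), with a median difference of 0.39. Of the 112 without it, 34 were higher and 35 lower (30.4% and 31.3%), with a median of -0.04. The signature set still had 36 higher and 3 lower among the 59 members that shared at most 10% of their 50-base words with other genes. Leaving out each library in turn gave between 35 and 49 higher and between 2 and 4 lower among the 75. Without the term for the day 1 pair it had 7 higher and 0 lower. Without chromosomes 1 and 8 it had 41 higher and 4 lower of 67, and all members had 69 higher and 38 lower of 170 (40.6% and 22.4%, against 36.8% and 27.4% of all genes outside these chromosomes). The difference between the sets was not tested, since members are not replicates.

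At earlier days the KRAB set did not have this excess of higher calls. At day 11 it had 8 higher and 24 lower (10.7% and 32%, against 22.7% and 12.3% of all genes) with a median of -0.18. At day 9 it had 10 higher and 6 lower (13.3% and 8%, against 16.7% and 10.5% of all genes) with a median of -0.01. At day 17 it had 16 higher and 6 lower (21.3% and 8%, against 28.9% and 11.4% of all genes). This turned to 10 higher and 17 lower under centring, where all genes had 17.5% and 25.6%. Over the mean of the 5 days it had 19 higher and 16 lower (16 and 22 under centring), with a median of 0.04. The shares over the mean were 25.3% and 21.3%, against 37.4% and 20.4% of all genes. CpG-poor promoters moved together with the signature, as 46 KRAB members were CpG-poor and 18 CpG-rich. At day 25 the CpG-poor KRAB members had 32 higher and 2 lower of 46 and the CpG-rich ones 9 higher and 2 lower of 18. CpG-poor members without the signature had 9 higher and 10 lower of 29, and the CpG-rich ones 20 higher and 15 lower of 60. Of all genes, 39.4% were higher and 25.9% lower. Members with no RefSeq promoter entry are in none of these 4 sets, and the sets were not tested against each other.

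The WT libraries of day 25 had lower levels of KRAB members than those of days 11 and 17. Relative to the same genotype at days 11 and 17, the median KRAB member at day 25 was at -0.45 on the log2 scale in WT and at -0.05 in KO, and 65 of the 75 were lower in WT. Members without the signature were at 0.03 in WT and 0.00 in KO, and all tested genes at 0.00 in both genotypes. Dnmt1 itself had 34.8 and 31.6 RPKM in WT at day 25 against 14.1 to 17.4 RPKM in WT at days 11 and 17. At day 25 Nanog, a stem cell factor, averaged 31.7 ± 1.45 RPKM in WT against 149 ± 7.36 RPKM in KO (SD, n = 2). Its difference of 2.23 on the log2 scale was the largest among the listed stem cell markers. The others differed in the same direction by 0.26 (Pou5f1), 0.35 (Sox2), 0.54 (Esrrb), 0.04 (Klf4, not called in limma) and 0.42 (Tdgf1). The part of these shifts and differences in the member calls was not tested.

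**Figure D2:**
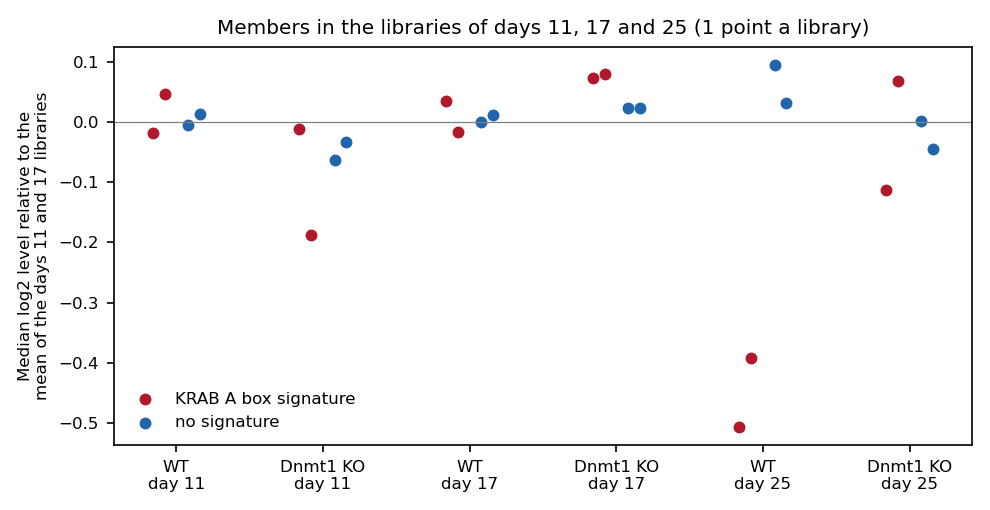
Median level of members with and without the KRAB signature in each high-share library of days 11, 17 and 25 (x axis, genotype and day, 2 libraries a group), as log2 difference from the mean of the 8 libraries of days 11 and 17 (y axis). The WT libraries of day 25 are at -0.51 and -0.39 for KRAB members, and the KO libraries of day 25 at -0.11 and 0.07.

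The effect of day 25 differed from that of day 9 in 92 members, being larger in 69 and smaller in 23 (26.7% and 21.5% of all genes), with a median change of 0.22. Of these, 52 were below 0 at day 9 and above 0 at day 25, and 15 the other way round. Such turns were not counted over all genes, so these counts have no background to be set against. The KRAB set held 41 of the larger and 4 of the smaller effects (54.7% and 5.33% of the set). Day 9 is low-share and day 25 high-share, so the change of day and of share cannot be told apart here. Within the high-share libraries, day 25 minus day 17 was called in 94 members (54.4% of all genes in either direction). It was larger in 59 and smaller in 35 members, beside 2927 and 3393 of the 11615 genes, and larger in 35 and smaller in 4 of the KRAB set. Across the 187 members, the differences had a Pearson r of 0.57 between days 3 and 9, 0.64 between days 9 and 11, 0.49 between days 11 and 17 and 0.24 between days 17 and 25. Over all genes the values were 0.65, 0.73, 0.71 and 0.39. These pairs of days share no libraries.

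Zfp951 and Zfp600 had the largest rises. Zfp951 (ENSMUSG00000072774.3), a KRAB gene with 10 finger matches on chromosome 5 of NCBIM37 from 105242366 to 105246371, had 0.935 and 0.945 RPKM in WT and 2.51 and 2.68 RPKM in KO at day 9. At day 25 it had 2.87 and 2.62 RPKM in WT and 8.45 and 9.21 RPKM in KO. The groups did not overlap on any of the 5 days. Its difference was 0.67 ± 0.11 at day 3, 1.37 ± 0.11 at day 9, 0.86 ± 0.11 at day 11, 0.83 ± 0.11 at day 17 and 1.65 ± 0.11 at day 25 (SE), with a mean of 1.08 ± 0.05 and a limma adjusted p of 2.4e-14. Only 0.3% of its 50-base words were shared with other genes.

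Zfp600 (ENSMUSG00000066007.8) lies on chromosome 4 from 146124225 to 146166156 in a region rich in KRAB zinc finger genes. At day 0 it had 4.19 and 4.05 RPKM in WT and 4.73 and 5.0 RPKM in KO, which was not called. At day 9 it had 4.73 and 4.31 RPKM in WT and 12.9 and 12.7 RPKM in KO. At day 17 its WT libraries had 15 and 15.8 RPKM and its KO libraries 26.3 and 26.6 RPKM. By day 25 it had 5.20 and 5.76 RPKM in WT and 18.6 and 26.1 RPKM in KO. The WT level of day 25 was thus below that of day 17, while the KO libraries were above the WT libraries on all 5 days, with a mean difference of 1.2 ± 0.05 (SE, limma adjusted p 2.9e-15). Since 79.3% of its 50-base words occurred in transcripts of other genes, the rise may belong in part to near-identical copies and is uncertain. Zfp534 on the same chromosome, with 61.8% shared words, rose by 0.51 ± 0.09 at day 9 and 0.73 ± 0.09 at day 25 (SE, limma adjusted p 0.00013 and 3.1e-07), but at days 3, 11 and 17 its differences were 0.03, 0.06 and 0.09.

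Zfp800, with no KRAB signature, lies on chromosome 6 from 28189931 to 28348005. It had 0.665 and 0.895 RPKM in WT and 1.2 and 1.2 RPKM in KO at day 9. On day 17 it had 1.57 and 1.57 RPKM in WT and 3.27 and 3.72 RPKM in KO. The groups were apart on all 5 days, although the day 11 difference of 0.25 ± 0.13 was not called (limma adjusted p 0.14). The mean difference was 0.71 ± 0.06 (SE, limma adjusted p 6.0e-10). Zfp961, a KRAB gene of chromosome 8 whose exons overlap those of Cyp4f18 on the other strand, had 2.81 and 2.70 RPKM in WT and 3.41 and 3.37 RPKM in KO at day 9. At day 25 it had 9.1 and 9.79 RPKM in WT and 15.2 and 15.7 RPKM in KO. It was called on each of the 5 days, with differences from 0.29 to 0.70 and a mean of 0.47 ± 0.03 (SE, limma adjusted p 1.2e-10).

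The other members named for their rises were Zfp640 (0.57), Zfp870 (0.54), Zfp820 (0.54) and Zfp410 (0.38), as mean log2 differences with an SE of 0.06 or 0.07. For Zfp640, on chromosome 13, 64.3% of the words were shared, so its value is uncertain. Zfp870, on chromosome 17, had 2.67 and 3.53 RPKM in WT and 5.69 and 5.76 RPKM in KO at day 25. Zfp820 overlapped between genotypes at days 9 and 11 and had its largest difference at day 25, with 1.06 and 1.19 RPKM in WT and 2.68 and 3.69 RPKM in KO (1.41 ± 0.14, SE, limma adjusted p 3.2e-08). At day 11 WT had 3.14 and 3.63 RPKM, so the WT level was low at day 25, and that of KO lay between the lowest and highest values of days 11 and 17. Zfp410, an activator of the chromatin remodeller gene Chd4, had 5.28 and 5.10 RPKM in WT and 8.25 and 6.77 RPKM in KO at day 11. Chd4 itself averaged 47.3 ± 1.44 RPKM in WT against 22.4 ± 0.130 RPKM in KO on day 25 (SD, n = 2), while WT averaged between 18.3 and 22.3 RPKM on all other days. Without WT replicate 1, KO replicate 1 or WT replicate 2 of day 25, Zfp410 was no longer called at day 25 (0.29 to 0.45, against 0.37).

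**Figure D3:**
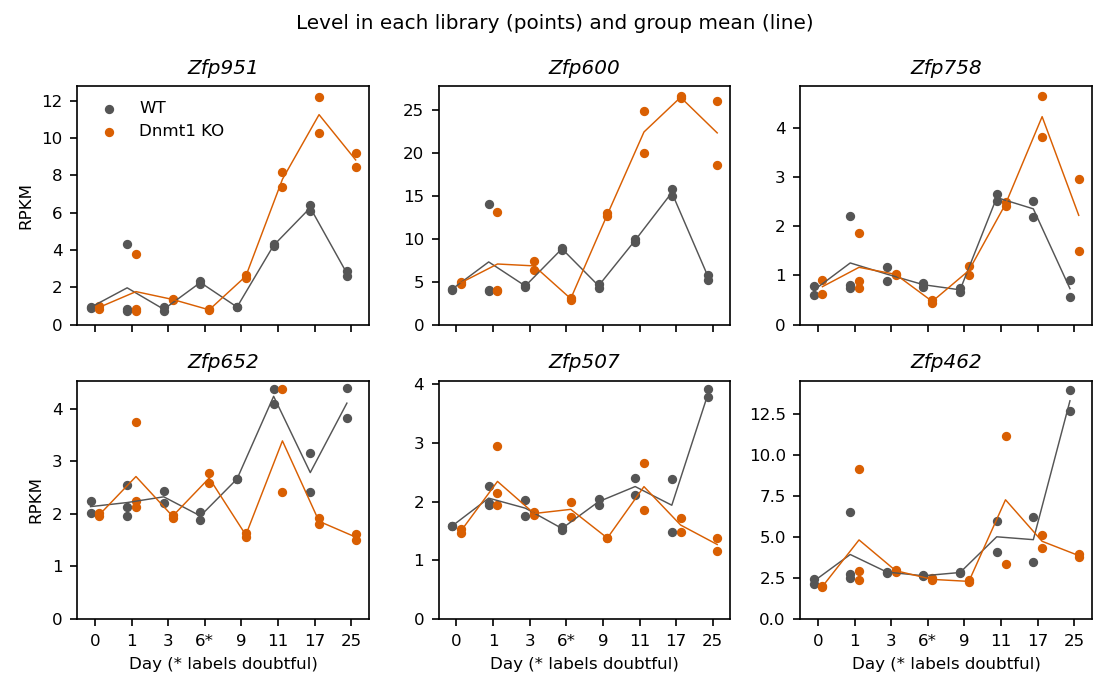
RPKM (y axes, from 0) in each WT and Dnmt1 KO library of 6 members at each day (x axes), with lines through group means. Zfp951 and Zfp600 are higher in KO from day 3 on except at day 6, where the labels are in doubt, and Zfp507 and Zfp462 part mainly at day 25, where WT is at 3.92 and 3.79 RPKM for Zfp507 and at 13.9 and 12.7 RPKM for Zfp462.

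Falls were smaller than the largest rises. Zfp266, a KRAB gene of chromosome 9 (20299512 to 20325861), had the steadiest one. It had 6.71 and 6.54 RPKM in WT and 5.20 and 5.16 RPKM in KO at day 9, 18 and 19.8 RPKM in WT and 13.3 and 13.5 RPKM in KO at day 17, and 18.1 and 17.7 RPKM in WT and 12.9 and 13.5 RPKM in KO at day 25. The genotypes did not overlap on any of the 5 days, the differences lay between -0.53 and -0.27, and the mean was -0.42 ± 0.03 (SE, limma adjusted p 4.9e-12).

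Zfp652, which encodes a partner of the corepressor CBFA2T3, had the largest mean fall. It had 2.67 and 2.66 RPKM in WT and 1.55 and 1.64 RPKM in KO at day 9, 4.09 and 4.38 RPKM in WT and 2.41 and 4.37 RPKM in KO at day 11, and 4.39 and 3.82 RPKM in WT and 1.61 and 1.5 RPKM in KO at day 25. The groups overlapped at day 11 and were apart on the other 4 days. Its mean difference was -0.64 ± 0.07 (SE, limma adjusted p 1.9e-07), and its exons overlap those of other genes on both strands. Zfp653, on chromosome 9, had 1.23 and 1.66 RPKM in WT and 0.727 and 0.720 RPKM in KO at day 9 and differed by -0.56 ± 0.07 in the mean (SE, limma adjusted p 1.8e-07). Its day 25 call was lost without WT replicate 2 or KO replicate 2 of that day (-0.69 to -0.33, against -0.51).

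The other members named for their falls included Zfp647 (mean -0.37), Zfp655 (-0.29), Zfp217 (-0.35) and Zfp414 (-0.38, with exons that overlap those of Gm20507). Differences below 0 on all 5 days were required for naming a fall. Zfp655 had 12.7 and 12.5 RPKM in WT and 9.32 and 9.75 RPKM in KO at day 25, and Zfp217, linked to RNA methylation control in stem cells, 5.97 and 5.75 RPKM in WT and 3.50 and 3.15 RPKM in KO. Zfp414 was called at day 25 (-0.83) but not without WT replicate 1 or KO replicate 1 of that day, its lowest size being -0.52 without WT replicate 1. Zfp507 differed by -0.47 ± 0.07 in the mean (SE, limma adjusted p 7.8e-06) and by -1.53 ± 0.16 at day 25 (SE, limma adjusted p 5.3e-08), with overlap between genotypes at days 3, 11 and 17. Exons of Zfp507, Zfp653 and Zfp800 overlap those of genes on the other strand (E130304I02Rik and Gm16929, Gm16845 and 6530409C15Rik).

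The largest differences of day 25 came with WT levels unlike those of other days. Zfp462, a large chromatin-associated zinc finger protein of stem cells, had 13.9 and 12.7 RPKM in WT at day 25 and 3.94 and 3.79 RPKM in KO (-1.75 ± 0.31, SE, limma adjusted p 4.7e-05), but 3.47 and 6.2 RPKM in WT at day 17. Its mean difference of -0.33 was called at an adjusted p of 0.045 in limma and lost when any of many single libraries was left out (-0.50 to -0.16). Zfp36, which encodes tristetraprolin, an mRNA decay factor, had 2.82 and 2.78 RPKM in WT and 1.44 and 0.892 RPKM in KO at day 25 (-1.23 ± 0.24, SE, limma adjusted p 0.00011). Zfp758, a KRAB gene of chromosome 17, had 0.560 and 0.905 RPKM in WT and 1.49 and 2.96 RPKM in KO at day 25, against 2.19 and 2.53 RPKM in WT and 3.83 and 4.65 RPKM in KO at day 17, so that it was higher in KO on both days. It is a member at exactly 17 libraries, 11 of KO and 6 of WT, so its rise is a description that the member rule favours.

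Day 17 had some large changes of its own. Zfp365, on chromosome 10, rose by 0.90 ± 0.14 at day 17 (SE, limma adjusted p 2.7e-05), from 4.38 and 4.09 RPKM in WT to 8.05 and 7.92 RPKM in KO. At day 25 it was the other way round, with 9.69 and 9.89 RPKM in WT and 5.16 and 5.02 RPKM in KO. Zfp740 had 20.1 and 18.5 RPKM in WT and 12.4 and 11.8 RPKM in KO at day 17 and differed by -0.67 ± 0.06 (SE, limma adjusted p 1.7e-08), and by -0.13 at day 25. The KRAB genes Zfp940 and Zfp141 on chromosome 7 fell by 0.69 and 0.55 at day 17 and had differences of 0.04 and 0.12 at day 25.

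By chromosome, the clusters were not alike. The largest one, 15 members on chromosome 17 from 21145905 to 23736454 of which 12 have the KRAB signature, had 13 members higher and none lower at day 25 in limma (14 higher with the day 1 replicate 3 pair left out, between 10 and 14 without single libraries, and 3 without the term for that pair). Its median difference was 0.55 at day 25, with single members from 0.14 (Zfp13) to 1.44 (Zfp758, which met the member rule mainly by its KO libraries). At day 9 it had 3 higher, none lower and a median of 0.03, and over the mean 7 higher, none lower and a median of 0.14. The 6 other tested genes in the same span had a median of 0.76 at day 25. Here and below, the other genes of a cluster leave out all genes named Zfp and digits, also those that were not members. The median member of the cluster in WT at day 25 was at -0.98 against WT at days 11 and 17, and in KO at -0.20.

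**Figure D4:**
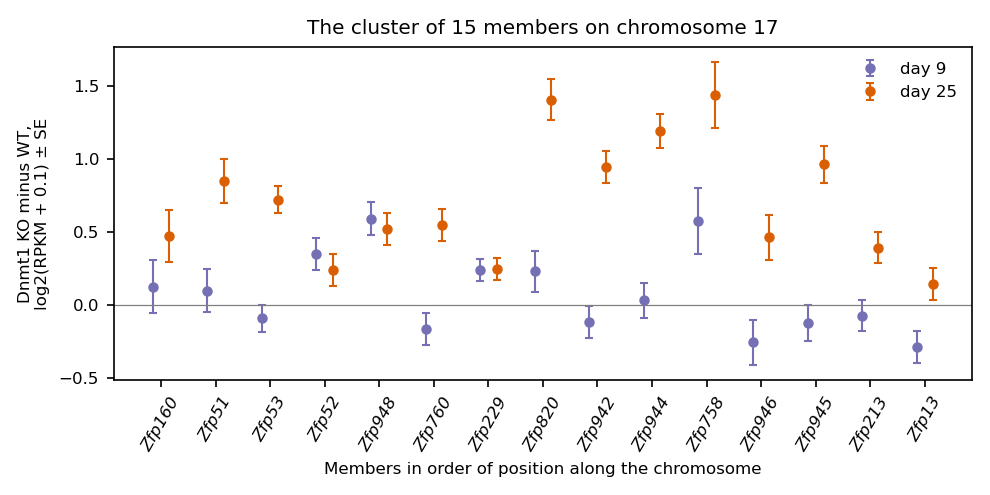
Difference between Dnmt1 KO and WT (y axis, log2(RPKM + 0.1), bars are SE from limma, 2 libraries a group) for the 15 members of the large chromosome 17 cluster in order of position (x axis), at days 9 and 25. All 15 values of day 25 are above 0, up to 1.44 in Zfp758, while those of day 9 lie from -0.29 to 0.59 on both sides of 0. Zfp758 met the member rule mainly by its KO libraries.

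At day 25 chromosomes 1 and 8 had the highest medians over all their tested genes. The median over all tested genes was 0.55 on chromosome 1 (635 genes) and 0.33 on chromosome 8 (647 genes), against between 0.01 and 0.27 on the others, whereas at days 3, 9, 11 and 17 the medians of these 2 chromosomes lay between -0.07 and 0.11. The part of these medians in the day 25 values of the members there (3 on chromosome 1 and 14 on chromosome 8) was not tested.

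Other clusters had high medians at day 25 too, as did their neighbours. The cluster of 8 KRAB members on chromosome 13 from 66771705 to 67927937 had 6 higher and 1 lower at day 25, with a median of 0.53 beside -0.12 at day 9, and the 16 other tested genes in its span had 11 higher, 0 lower and a median of 0.76. The 4 KRAB members on chromosome 2 (Zfp120, Zfp937, Zfp442 and Zfp345) were all higher at day 25 with a median of 0.46, beside 0.29 for 5 other genes there. The 4 on chromosome 8 (Zfp930, Zfp868, Zfp869 and Zfp866) were also all higher, with a median of 0.33, which is that of the whole chromosome, and the 4 other genes in the span had a median of 1.05. The calls of Zfp937 and Zfp442 were lost without single day 25 libraries (0.08 to 0.66 and 0.21 to 0.58), as was that of Zfp866 (0.21 to 0.25). At day 9 none of the 4 on chromosome 2 was called in limma, and 2 of the 4 on chromosome 8 were lower.

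Neighbours did not always move together. The second chromosome 17 cluster, 7 members from 32908181 to 33768724, had 3 higher and 2 lower at day 25 with a median of -0.03, from Zfp414 at -0.83 to Zfp870 at 0.88. On chromosome 7, the 7 members from 30618639 to 30954746 had 1 higher and 2 lower at day 25 with a median of 0.04. By contrast, all 3 from 6083091 to 7074163 were below 0 at day 9 (median -0.53) and above 0 at day 25 (median 0.50). The 5 members on chromosome 15 from 75447109 to 76748440 had 4 lower and none higher over the mean, with a median of -0.20. The 45 other tested genes there had 14 higher and 12 lower, with a median of 0.03. The 3 on chromosome 13 from 62231276 to 62621904 had a median of 0.43 at day 9 and 0.35 at day 25.

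**Figure D5:**
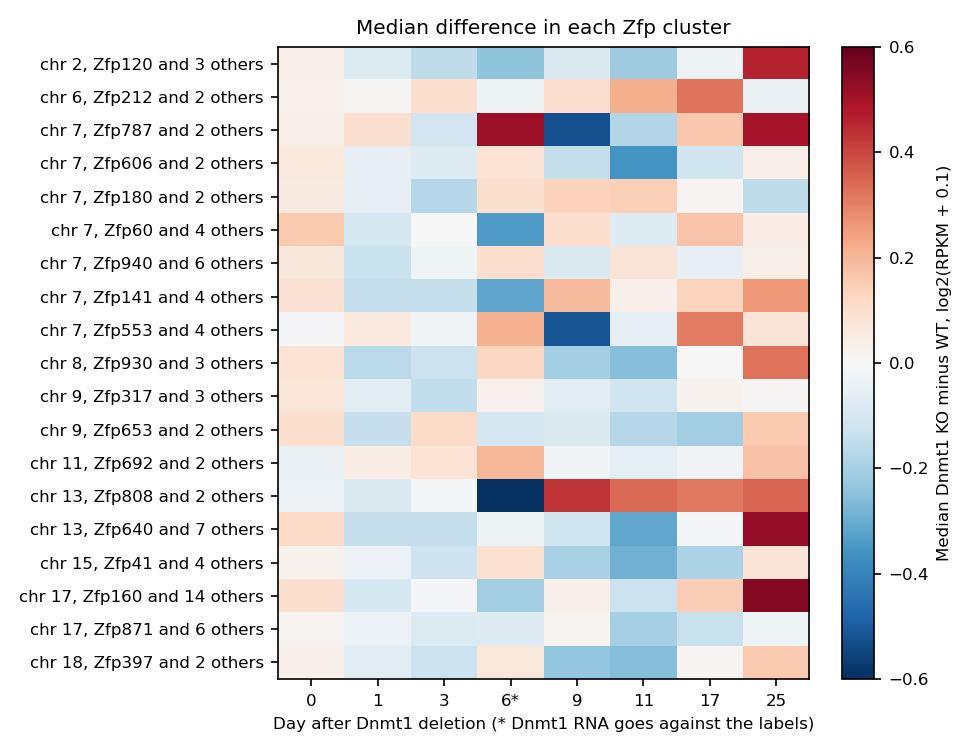
Median difference between Dnmt1 KO and WT (colour, log2(RPKM + 0.1), red higher in KO) for each of the 19 clusters of members (rows) at each day (columns). The clusters on chromosomes 2, 13 (Zfp640 and neighbours) and 17 (Zfp160 and neighbours) reach 0.46, 0.53 and 0.55 at day 25 and were between -0.12 and 0.03 at day 9. The chromosome 7 cluster of Zfp787, without KRAB signatures, reaches 0.50 at day 25 and was at -0.53 at day 9.

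Of 7 listed stem cell factors, 6 were members (not Zfp322) and none was called at day 9 in limma. At day 25, Zfp281 and Zfp207 were higher and Zfp217 and Zfp462 lower, while 39.4% and 25.9% of all genes were higher and lower, and 37.4% and 20.4% over the mean, which is the background for the lists that follow. Zfp281, a regulator of the exit from pluripotency, had 20.6 and 20.9 RPKM in WT and 28.0 and 28.0 RPKM in KO at day 25 (0.43 ± 0.06, SE, limma adjusted p 3.5e-06), a difference below the median of 0.55 of its chromosome. Zfp143, which binds promoters at loop anchors, differed by -0.10 ± 0.12 at day 25 (SE, limma adjusted p 0.47).

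Among KRAB genes known for imprints or transposons, 5 of 7 listed were members. Zfp445, a guardian of imprints, had 5.37 and 5.11 RPKM in WT and 4.51 and 4.31 RPKM in KO at day 9 and 16.5 and 16.8 RPKM in WT and 12 and 12 RPKM in KO at day 25. Its differences were below 0 on all 5 days, with a mean of -0.27 ± 0.04 (SE, limma adjusted p 1.2e-06). Zfp568 was higher by 0.19 ± 0.03 in the mean (SE, limma adjusted p 3.0e-06), mostly at day 17 with 23.2 and 23.2 RPKM in WT and 31.8 and 32.5 RPKM in KO. Zfp932, with 38.2% shared words, was lower by 0.35 at day 3 and 0.43 at day 17 on the log2 scale, with a mean of -0.21 ± 0.04 (SE, limma adjusted p 9.4e-05). This list had 3 members higher and 2 lower over the mean.

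Of 8 genes with roles in RNA or ribosomes, 6 were members. Over the mean, Zfp593 was higher and Zfp106 and Zfp598 were lower. Zfp106 had 40.8 and 41.3 RPKM in WT and 27.1 and 26.7 RPKM in KO at day 25 (-0.61 ± 0.08, SE, limma adjusted p 1.3e-06). Zfp598, the ubiquitin ligase that senses collided ribosomes, had 8.33 and 8.60 RPKM in WT and 5.91 and 5.03 RPKM in KO at day 25, but between 4.79 and 6.06 RPKM in WT at days 3 to 17. Its mean call (-0.14) and that of Zfp593 (0.16) were lost without single libraries (-0.18 to -0.10 and 0.11 to 0.21). Zfp622, a ribosome maturation factor, had a day 25 difference of -0.03 ± 0.09 (SE, limma adjusted p 0.76).

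Of 6 neural or mesenchymal factors only Zfp238, a neuronal repressor, was a member, and it had 1.07 and 1.16 RPKM in WT and 1.94 and 1.64 RPKM in KO at day 25 (0.64 ± 0.14, SE, limma adjusted p 0.00037), near the median of 0.55 of all tested genes on its chromosome, chromosome 1. Of 8 promoter-binding or widely used factors, 7 were members. Over the mean, Zfp148 and Zfp410 were higher and Zfp161 was lower, and the Zfp148 call (0.10) was lost under centring (0.03). Zfp335, needed for neural progenitors, had 3.03 and 2.75 RPKM in WT and 1.64 and 1.47 RPKM in KO at day 25, and in WT between 1.1 and 1.51 RPKM at days 3 to 17. These lists were drawn up with results of these data known.

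Genes whose products work with KRAB zinc finger proteins had more lower than higher calls at day 25. Of 21 listed genes of the TRIM28, SETDB1, HP1, NuRD and HUSH complexes and of histone H3 lysine methylation, 19 were tested, and 5 were higher and 11 lower at day 25 (median -0.33), beside 39.4% and 25.9% of all genes. At day 9, 1 was higher and 3 lower (16.7% and 10.5% of all genes), and at day 11, 5 were higher and 3 lower (22.7% and 12.3%). Over the mean 1 (Smarcad1) was higher and 11 lower, with a median of -0.11 (37.4% and 20.4% of all genes). Trim28, the corepressor that KRAB recruits, averaged 151 ± 5.41 RPKM in WT against 94.6 ± 0.887 RPKM in KO on day 25 (SD, n = 2). At day 11 it was higher in KO (0.60 ± 0.13, SE, limma adjusted p 0.00092). The 2 KO libraries of day 11 lay far apart, with 65.1 ± 22.9 RPKM against 41.5 ± 1.99 RPKM in WT (SD, n = 2). WT averaged 41.5 RPKM at day 11 and 79.1 RPKM at day 17, and at most 95.9 RPKM on any other day before day 25. Setdb1 averaged 15.6 ± 0.304 RPKM in WT against 10.7 ± 0.114 RPKM in KO on day 25 (SD, n = 2).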

How the data were processed

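Total RNA-seq libraries of 17 WT, 17 Dnmt1 KO and 1 Dicer KO ESC samples were used. The deposited table gives RPKM per gene on a linear scale, made by the authors from reads trimmed with Trim Galore 0.3.5 and aligned with TopHat2 2.0.11 to NCBIM37 (submitters' processing notes), kept at a mapping quality of at least 20 and quantified in SeqMonk, with no further scaling stated. Total reads set the scale, so a library with a larger share of reads in exons has higher RPKM for most genes. The methods name log2 RPM, but the table holds RPKM, so tests were made on a log scale.

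The 11615 genes that exceeded 1 RPKM in 2 or more of 34 libraries entered a linear model on log2(RPKM + 0.1) by lmFit and trended eBayes of limma (version 3.58.1, R 4.3.3), with group means, a term for the day 1 replicate 3 pair and 17 residual degrees of freedom. P-values were Benjamini-Hochberg adjusted over all genes and called below 0.05. Reads were recovered from the RPKM steps (99.5% to 99.7% of values under 20 reads within 0.1 of a whole read), giving 5.10 to 17.5 mega-reads in genes per library, and were used only for depth and as an alternative with voom. The fit was tested on simulated data. Finger and KRAB patterns were searched in the longest GENCODE vM1 coding sequence of each member, since no protein table was used here. Python 3.11.15, numpy 2.4.6, pandas 2.3.3 and matplotlib 3.10.9 served for the rest.

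Members, lists, clusters, tests and alternatives were chosen with earlier results of these data known. Named members were the 8 largest mean rises and 8 largest falls with 1 sign on 5 days, the 4 largest calls each way at days 25 and 17, the extremes of each cluster, the 5 highest medians, the genes at the threshold and the role lists, of which the text gives those with the most to show. The alternatives were another pseudocount, no filter on low values, no term for the day 1 pair, the compared groups alone, median centring, a replicate block, voom, each library left out, stricter members, other sets of days and a cluster distance of 3 Mb. After the data were seen, fits without the day 1 replicate 3 pair and without day 6, day 25 minus day 17, counts over KRAB members and the chromosome 17 cluster, and counts without chromosomes 1 and 8 were added. Antisense and transposon RNA were not analysed here.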

Additional observations from a re-analysis of the deposited data

Results flagged for a closer look

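The KO effect of day 25 differed from that of day 9 in 92 members by limma's test of the difference between the 2 days. Among the members named by rule, 2 were called in opposite directions on these days. Zfp787 had a difference of -0.68 at day 9 and 0.50 at day 25, a change of 1.17 ± 0.19 (SE, limma adjusted p 5.3e-05). Zfp930 had -0.41 at day 9 and 0.60 at day 25, a change of 1.01 ± 0.15 (SE, limma adjusted p 2.3e-05). Zfp930 had 5.56 and 5.53 RPKM in WT and 4.26 and 4.02 RPKM in KO at day 9, and 7.93 and 8.64 RPKM in WT and 12.1 and 13 RPKM in KO at day 25, while WT had 15.6 and 13.9 RPKM at day 17. It lies on chromosome 8, whose tested genes had a median of 0.33 at day 25. The Dicer KO library, which entered no comparison, had 3 members at over 1 on the log2 scale above the highest of the 6 WT libraries of days 11, 17 and 25. These were Zfp800 (6.54 RPKM against at most 3.09), Zfp488 (32.1 against 16.0) and Zfp91 (18.1 against 6.75), the last 2 named after their values were seen, and they rest on 1 library.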

How the results depend on the processing

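The number of members called was 16 at day 3, 58 at day 6, 42 at day 9, 68 at day 11, 58 at day 17, 120 at day 25, 91 over the mean and 92 for day 25 minus day 9. Without the term for the day 1 replicate 3 pair, which then counts as plain replicates of day 1 in the spread, it was 0, 0, 1, 3, 3, 24, 13 and 5, and 75 of 102 calls of named members were lost, whereas leaving that pair out lost none of the 102 and gave 1 call at day 1. Fits of the compared groups alone gave 27 at day 3, 2 at day 11 and 36 at day 17, with few residual degrees of freedom. Members above 1 RPKM in all 34 libraries, who are fewer by construction, gave 10 at day 3, 33 at day 6, 32 at day 17, 60 over the mean and 60 for day 25 minus day 9. The mean of days 3 and 9 alone gave 57. Leaving out 1 library gave 0 to 1 calls at day 1, 8 to 22 at day 3, 33 to 69 at day 6, 23 to 61 at day 9, 39 to 83 at day 11, 42 to 67 at day 17, 88 to 125 at day 25, 79 to 103 over the mean and 64 to 101 for the difference of days. A lone sample in such a fit is assumed to vary like the other groups. None of the 102 calls of named members changed sign under any alternative run, which does not cover uncalled differences near 0, such as the mean of Zfp251 (0.01). The medians of the 19 clusters at day 25 and over the mean moved by less than the spread between replicates under centring and a 3 Mb distance. Centring turned some signs of small medians. Over the mean it did so for the clusters of Zfp120 on chromosome 2 (0.04 to -0.04) and Zfp60 on chromosome 7 (0.06 to -0.02). The same held for those of Zfp653 on chromosome 9 (0.03 to -0.05) and Zfp640 on chromosome 13 (0.003 to -0.07). At day 17 it turned the large chromosome 17 cluster (0.15 to -0.04) and the chromosome 7 cluster of Zfp141 (0.13 to -0.05), among others.

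Same-numbered deviations correlated at 0.78 to 0.91 at day 1, whose replicate 3 pair is high-share, and at 0.26 at day 11, but at -0.16 to 0.09 on the other days, so the numbers were not taken to pair the samples throughout. With a replicate block the mean had 40 higher and 51 lower members and day 25 had 76 and 40, and 1 of 102 calls of named members was lost (Zfp410 at day 25). Depth limited little here, as 1 of 6358 member values lay under 10 reads, but 2 libraries a group limit the precision of each difference, and intervals cover no difference between cultures that the labels do not describe.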

Other observations

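At day 1, replicate 3 of each genotype was high-share and replicates 1 and 2 were low-share, so the same day and genotype can be compared across the sets. The level of the median member in replicate 3 over the mean of the other 2 libraries was 1.31 on the log2 scale in WT and 1.25 in KO, against 1.00 over all tested genes in both. Members ranged from -0.65 (Zfp414) to 3.11 (Zfp640) in WT and from -0.76 (Zfp414) to 3.13 (Zfp640) in KO, with a Pearson r of 0.93 between the genotypes across the 187 members, which share these libraries' preparation. KRAB members had medians of 1.42 and 1.40 and members without the signature 1.18 and 1.15.

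In the single Dicer KO library 13 members (6.95%, against 3.86% of all tested genes) were over 1 on the log2 scale below the lowest of the 6 WT libraries of days 11, 17 and 25, and 3 (1.6%, against 7.01%) were above the highest. Zfp647, at 0.314 RPKM against at least 1.58 RPKM, was the farthest below, and Zfp600 had 1.96 RPKM against at least 5.20 RPKM. There is no replicate for this library, whose summed fibroblast marker level was 36.1 RPKM.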
